A study of Mus musculus with 4 samples.

Results

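The motor neuron and cholinergic genes were 8 genes, chosen by name and taken from the 24771 listed features by their gene symbols. They were the homeobox transcription factor genes Mnx1, Isl1, Isl2, Lhx3 and Lhx4, and the acetylcholine genes Chat, Slc18a3 and Slc5a7. Their expression was compared between mES-derived induced embryonic salivary glands, which the study calls PSC-derived SG placodes, and submandibular glands (SMGs) of mouse embryos at E12.5, each group having 2 samples. The placodes were aggregates of the mouse embryonic stem cell line 129w2 started from 3000 cells in each well, with 2% Matrigel from day 1. They received BMP4 (2 ng/ml) on day 3, bFGF (25 ng/ml) with RA (1 μM) on day 4 and FGF10 (200 ng/ml) from day 6, and RNA was taken on day 10. The placode libraries came from 1 cell line. The SMG labels name neither a mouse strain nor the method of dissection, and neither group's labels tell whether the samples came from separate cultures or litters, so p-values measure the spread between these samples only.

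Spinal motor neurons arise from progenitors that express Olig2 and Nkx6-1. After the last division they express Isl1, Isl2, Lhx3, Lhx4 and Mnx1, and Isl1 with Lhx3 forms a complex through the LIM cofactor Ldb1 that switches on motor neuron and cholinergic genes. Chat encodes choline acetyltransferase, which makes acetylcholine, Slc18a3 encodes VAChT, which loads it into vesicles, and Slc5a7 encodes CHT1, which takes choline back up. Acetylcholine is also the transmitter of parasympathetic neurons, and the developing SMG is innervated by such neurons from the adjacent ganglion.

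Expression was given as FPKM, the sequenced fragments of a gene scaled to its length and to the mapped fragments of the sample, so levels of different genes can be set beside each other. The 4 samples had between 12636 and 12807 features of FPKM 1 or more. Of 13 gland epithelium markers, 13 were at FPKM 1 or more in both SMG libraries and 8 in both placode libraries. Of these markers 8 were lower in the placodes, among them Krt5, Krt14 and Krt15, which were listed at 0 there. Sox9 and Krt19 were higher, by 2.20 and 0.85 on the log2 scale, with limma adjusted p-values of 3.66e-06 and 0.00363. The Krt19 call was lost without either placode library (0.0548 and 0.0689). Krt8 and Krt18 were among the 3 not past the threshold (0.322 and 0.0541), and 2 of 4 other scalings put Krt18 past it. The summed FPKM of 10 mesenchyme markers was 219 and 215 in the placode libraries and 2173 and 2121 in the SMG libraries. The summed FPKM of 10 pan-neuronal genes was 1053 and 1091 in the placode libraries and 99.5 and 88.9 in the SMG libraries. In these bulk samples, fewer cells of a type and less RNA per cell cannot be told apart, and the part of these differences in the results that follow was not tested. Groups were compared with limma on log2(FPKM + 1) for the 13193 features with a mean FPKM of at least 1, and p-values were adjusted over all of them. At an adjusted p below 0.05, 35.7% of these features were higher and 40.4% lower in the placodes. These shares are the background for the counts of every gene list given here. No batch is named in the labels, so a batch that follows the groups cannot be told apart from them.

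The motor neuron and cholinergic genes were low in both groups, and no member reached an FPKM of 5 in any sample. In the placodes, 6 of the 8 genes (Mnx1, Isl1, Lhx3, Lhx4, Chat and Slc18a3) were above both SMG libraries in both samples, and Isl2 and Slc5a7 were below. The groups did not overlap for any of the 8, and over all features above 0 in any sample this held for 77.2%, with 35.8% higher and 41.4% lower in the placodes. In both libraries of a group, 3 members were at FPKM 1 or more in the placodes (Slc18a3, Lhx3 and Isl1) and 1 in the SMGs (Isl2), against 50.1% and 50.5% of all listed features. Of the members, Isl1, Isl2 and Slc18a3 reached the minimum for testing, and all 3 had an adjusted p below 0.05, against 76.2% of all tested features. Of these, 2 were higher in the placodes and 1 lower, against 35.7% and 40.4% of all tested features. All 3 reached this minimum through the group in which they were high, since their mean in the other group was below 1. When every feature above 0 in any sample was tested, 7 of the 8 were past the threshold, 6 higher and 1 lower in the placodes, against 58.1% of all features (27.1% higher and 31.1% lower). Slc5a7 was the member that was not.

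**Figure D1:**
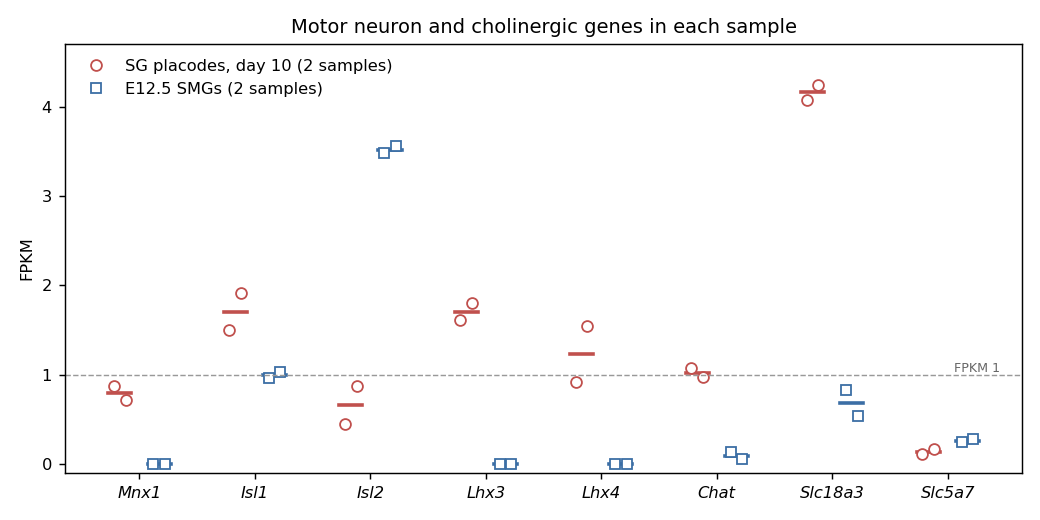
FPKM of the 8 motor neuron and cholinergic genes (linear axis) in each of the 2 SG placode libraries (circles) and the 2 E12.5 SMG libraries (squares), with the mean of each group as a bar. Slc18a3 is highest in the placodes and Isl2 in the SMGs, and Mnx1, Lhx3 and Lhx4 are at 0 in both SMG libraries.

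Mnx1 (HB9, Ensembl gene ENSMUSG00000001566) encodes a homeodomain factor that keeps motor neurons from taking on interneuron features. Mnx1 occupies bases 29473034 to 29478470 of chromosome 5 (coordinates here and for the other genes are GRCm38). Placode libraries 1 and 2 gave FPKM values of 0.876 and 0.718, and both SMG libraries list the gene at 0. Lhx3 (ENSMUSG00000026934, chromosome 2 from 26200212 to 26208289) is the LIM homeodomain partner of Isl1 in motor neurons and acts without it in V2 interneurons. Lhx3 was at FPKM 1.61 and 1.80 in the placode libraries and was listed at 0 in both SMG libraries. Lhx4 (ENSMUSG00000026468, chromosome 1 from 155698031 to 155751684), its close relative, was at 0.922 and 1.55 in the placode libraries and was likewise listed at 0 in the SMGs. These 3 genes thus separated the groups by presence against a listed 0, a pattern found for 3.56% of features above 0 in any sample. Without the minimum of mean FPKM, limma gave adjusted p-values of 0.00117 for Mnx1, 0.000346 for Lhx3 and 0.00393 for Lhx4. No fold change is given against a group at 0. An antisense gene, Gm27196, overlaps Lhx3 in the annotation, and the strand setting of the counting is not given in the sources used here, so reads of the pair cannot be told apart.

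Isl1 (ENSMUSG00000042258, chromosome 13 from 116298281 to 116309689) is needed for motor neurons to form and is also expressed in sensory and autonomic neurons, pharyngeal mesoderm and other tissues. It was at FPKM 1.49 and 1.91 in the placode libraries and 0.958 and 1.03 in the SMG libraries. Both placode values were above both SMG values, and the gap between the groups was close in size to that between the placode libraries. The log2 fold change of FPKM + 1 was 0.44 (standard error 0.13, limma adjusted p = 0.0190). This call was lost without placode sample 2 (adjusted p = 0.0758), without SMG sample 1 (adjusted p = 0.0708) and without SMG sample 2 (adjusted p = 0.0534), and the log2 fold change ranged from 0.32 to 0.76 over the alternatives, highest at a pseudocount of 0.01.

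Isl2 (ENSMUSG00000032318, chromosome 9 from 55538672 to 55546180), the paralog that follows Isl1 in postmitotic motor neurons and also marks sensory neurons, went the other way. Its FPKM was 0.447 and 0.870 in the placode libraries and 3.47 and 3.55 in the SMG libraries, where it was the most abundant of the 8 genes. The log2 fold change was -1.46 (standard error 0.15, limma adjusted p = 0.000186), and a pseudocount of 0.01 moved it to -2.47. The ratio of Isl2 to Isl1 was 0.299 and 0.455 in the placode libraries and 3.63 and 3.47 in the SMG libraries, so the order of the paralogs was opposite in the groups. An antisense gene, Gm17226, overlaps Isl2 in the annotation.

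Chat (ENSMUSG00000021919) and Slc18a3 (ENSMUSG00000100241) form the cholinergic gene locus on the minus strand of chromosome 14. Chat extends from 32408203 to 32465989, and Slc18a3, a gene of 1 exon and 2413 bases from 32462438 to 32464850, lies inside the first intron of 4 of the 8 annotated Chat transcripts and overlaps no Chat exon. Slc18a3 was at FPKM 4.07 and 4.24 in the placode libraries and 0.824 and 0.538 in the SMG libraries, and was the most abundant member in the placodes. Its log2 fold change was 1.62 (standard error 0.13, limma adjusted p = 5.15e-05), and 2.62 at a pseudocount of 0.01. Chat was at 1.07 and 0.976 in the placode libraries and 0.136 and 0.0526 in the SMG libraries, with an adjusted p of 0.00127 when no minimum was set. Both genes of the locus were thus higher in both placode libraries. Slc18a3 exceeded Chat 3.80-fold and 4.35-fold in the placode libraries and 6.08-fold and 10.2-fold in the SMG libraries. Since the genes overlap on the same strand, reads in the Slc18a3 exon cannot be assigned to either gene with certainty, and an antisense gene, Gm2990, also overlaps Chat.

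Slc5a7 (ENSMUSG00000023945, chromosome 17 from 54273590 to 54299034) was the lowest member in the placodes, at an FPKM of 0.112 and 0.164, and was at 0.244 and 0.278 in the SMG libraries. Without the minimum its log2 fold change was -0.15 (95% interval -0.32 to 0.02, limma adjusted p = 0.110), so it did not follow Chat and Slc18a3 past the threshold.

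In the placodes the order of the members ran from Slc18a3 through Lhx3, Isl1, Lhx4, Chat, Mnx1 and Isl2 to Slc5a7. The ranges of Lhx3, Isl1, Lhx4 and Chat overlapped from one neighbour to the next, as did those of Mnx1 and Isl2, while Slc18a3 and Slc5a7 stood apart from their neighbours. In the SMGs the order ran from Isl2 through Isl1, Slc18a3 and Slc5a7 to Chat, with no overlap between neighbours, followed by the 3 genes listed at 0. Within the placode libraries, Slc18a3 was above 60.5% and 60.8% of all listed features, and the other members were above 34.9% to 53.6%. Tubb3, a tubulin gene used as a general neuronal marker, was 84.8-fold and 85.9-fold above Slc18a3 in the placode libraries and 50.5-fold and 68.9-fold above it in the SMG libraries.

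Stretches of sequence before a RefSeq start site are shown for the member with a match to a full RE1, for the most abundant member of the placodes and for the tested member that was lower there. RE1 is the element bound by REST, a repressor of neuronal genes. CRE is the cyclic AMP response element. Letters were taken from the RefSeq promoter table of GRCm38 and run 5′ to 3′ on the strand of the gene. Capitals mark the full RE1 in Lhx3, the full CRE in Isl2 and CGTCA in Slc18a3. CGTCA, from base -49 to -45, is the shorter part TGACG of the CRE read on the other strand, not a full CRE. Further TGACG matches in the Lhx3 and Isl2 stretches are left in lower case.
Lhx3: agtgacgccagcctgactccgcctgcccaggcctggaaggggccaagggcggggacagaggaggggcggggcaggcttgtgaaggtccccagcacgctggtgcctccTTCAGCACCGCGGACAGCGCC
Slc18a3: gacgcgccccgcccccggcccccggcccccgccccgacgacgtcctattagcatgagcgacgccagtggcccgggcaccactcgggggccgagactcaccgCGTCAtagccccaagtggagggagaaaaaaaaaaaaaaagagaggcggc
Isl2: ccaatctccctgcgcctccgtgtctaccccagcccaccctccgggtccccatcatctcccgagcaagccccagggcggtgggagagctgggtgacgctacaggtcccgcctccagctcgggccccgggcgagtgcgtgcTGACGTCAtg
The Lhx3 stretch is chr2:26208272-26208399 on the minus strand, the Slc18a3 stretch chr14:32464851-32465000 on the minus strand and the Isl2 stretch chr9:55540999-55541147 on the plus strand. All 8 members matched the table, with 9 windows of 250 bases before a start site, since Lhx3 has a pair of starts. The motifs were searched on both strands and were chosen after these windows had been read. The RE1 sequence, TTCAGCACC and then, after any 2 bases, the right part that ends the Lhx3 line, was found at the upstream start of Lhx3, from base -43 to -23 of that start, and in 1 of all 32851 windows, which is this one. GENCODE starts an Lhx3 exon at base -40 of this RefSeq start, so most of the match lies inside the annotated gene. The Isl2 stretch lies inside the annotated Isl2 gene and the Slc18a3 stretch inside the Chat gene, both outside annotated exons of the gene whose start they precede. The left part of the RE1, TTCAGCACC, occurred in 0.301% of all windows and its right part in 0.0974%. Among the members both occurred in Lhx3 alone, inside the full match. The CRE sequence TGACGTCA was found in Isl2 from base -11 to -4 and in 1.55% of all windows. The shorter TGACG, which the full CRE contains, was found in windows of Chat, Isl1, Isl2, Lhx3, Lhx4 and Slc18a3, 6 of 9, and in 17.8% of all windows. Neither a direct repeat of AGGTCA spaced by any 5 bases, a form of the RA response element present in 0.00913% of windows, nor the homeodomain sequence TAATTA, present in 4.84%, was found in a member's window. These matches describe letters and not bound sites.

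Of 13 genes for motor neuron progenitors and LIM cofactors, 8 were tested, of which 5 were higher and 3 lower in the placodes. The 5 were Neurog2, a proneural factor, the cut homeobox genes Onecut1, Onecut2 and Onecut3, which help to maintain Isl1 in motor neurons, and Nkx6-1. Neurog2 was at FPKM 13.0 and 13.4 in the placode libraries and 0.0932 and 0.0626 in the SMG libraries, a log2 fold change of 3.72 (standard error 0.10, limma adjusted p = 6.62e-07). Onecut1 rose by 3.73 on the log2 scale (standard error 0.10) and was at 0 and 0.0324 in the SMG libraries. Nkx6-1 was at 2.95 and 3.84, and Olig2, which defines the motor neuron progenitor domain, at 1.13 and 1.96. Nkx6-1 and Olig2 were listed at 0 in both SMG libraries. Nkx6-2 was at 1.53 and 1.87 in the placode libraries, while Nkx2-2 and Nkx2-9, genes of the neighbouring V3 domain, were below 0.2 in all samples. Ldb1, the bridging cofactor of LIM factors, was at 86.4 and 88.2 in the placode libraries and 98.6 and 103 in the SMG libraries. Its log2 fold change was -0.20 (standard error 0.05, limma adjusted p = 0.00839), with an adjusted p of up to 0.0516 under 4 other scalings and of 0.0619 without placode sample 1. Lmo4, which competes for Ldb1, fell to 37.6 ± 0.838 (SD, n = 2) in the placodes from 52.4 ± 0.599 (SD, n = 2) in the SMGs. The largest fall of the list was in Ldb2, at 1.66 and 1.01 against 65.8 and 78.0 (log2 fold change -4.97, standard error 0.15, limma adjusted p = 1.05e-06).

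Of 17 genes that mark motor columns, visceral motor neurons or maturing motor neurons, 16 were tested, with 4 higher, 7 lower and 5 not past the threshold. The tested genes had a median of -0.18 on the log2 scale, and all tested features one of -0.05. Lhx1, found in lateral limb-level motor neurons and in many interneurons, was at 102 ± 3.42 in the placodes and 0.0199 ± 0.00888 in the SMGs (SD, n = 2 each) (log2 fold change 6.66, standard error 0.07, limma adjusted p = 7.80e-08). Its placode level was thus far above that of any of the 8 motor neuron and cholinergic genes. The others that rose were Pou3f1, at 6.43 ± 0.520 against 0.184 ± 0.101 (SD, n = 2 each), Sox11 and Sox4, the last the most abundant gene of this list at 267 and 265 in the placode libraries and 73.0 and 69.2 in the SMG libraries. Foxp1, which defines limb-level motor columns, was at 20.2 and 19.6 against 18.9 and 18.3 (limma adjusted p = 0.167, and 0.0454 to 0.151 under 4 other scalings). Mecom, a medial column gene, had an adjusted p of 0.435 and Etv1 one of 0.112. Aldh1a2, the RA-making enzyme of limb-level motor neurons and of mesenchyme, fell to 3.61 and 2.88 from 60.8 and 68.5 (log2 fold change -3.95, standard error 0.10). Tbx3 and Etv4 fell as well, by 3.27 and 3.17 on the log2 scale. Phox2a, a homeobox gene of visceral motor neurons, was at 5.40 and 4.48 in the placode libraries against 6.57 and 5.72 (adjusted p = 0.0778).

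**Figure D2:**
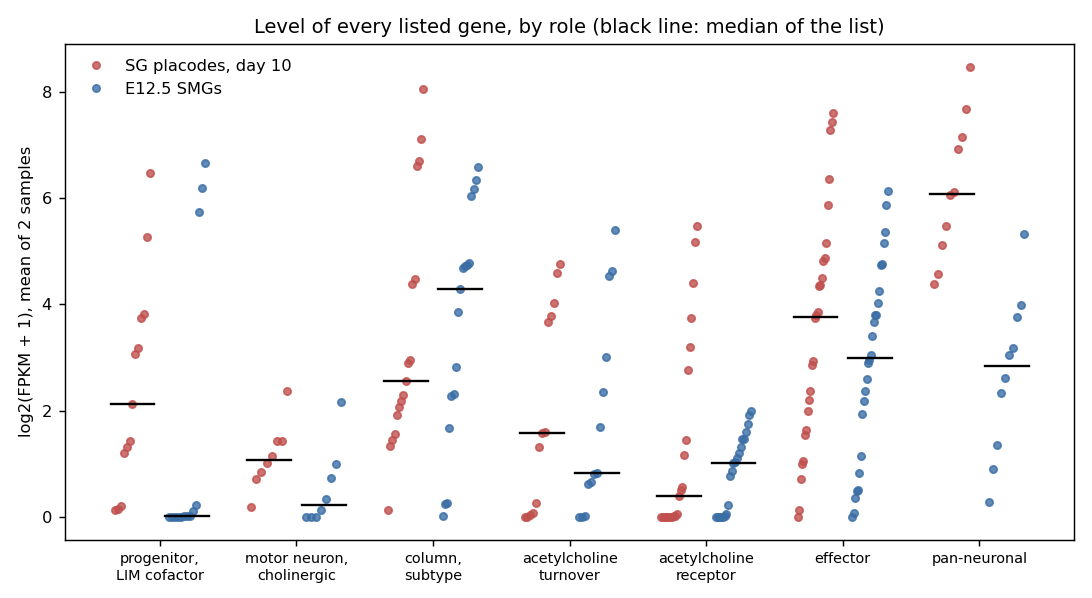
Mean log2(FPKM + 1) of 2 samples for every listed gene, in SG placodes (red) and E12.5 SMGs (blue), grouped by role, with the median of each list as a black line. The motor neuron and cholinergic genes lie at the low end of the axis in both groups, while pan-neuronal genes are far higher in the placodes.

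Of 13 genes that break down acetylcholine or supply choline, 8 were tested, with 4 higher and 4 lower in the placodes. Ache, the acetylcholinesterase gene, was at 23.7 and 22.9 in the placode libraries and 2.86 and 1.72 in the SMG libraries (log2 fold change 2.90, standard error 0.16, limma adjusted p = 1.32e-05). Prima1, which anchors the enzyme to neuronal membranes, was at 2.33 and 1.77 against 1.05 and 0.556 (adjusted p = 0.00738), and this call was lost without placode sample 1 (adjusted p = 0.0805). The remaining pair that rose were the choline kinase gene Chkb, whose call was lost without either placode sample (adjusted p = 0.0561 and 0.0667), and Slc44a5. Bche, which encodes butyrylcholinesterase, fell to 1.43 and 1.57 from 4.94 and 3.44, and the choline transporter gene Slc44a1 fell to 11.7 and 11.6 from 25.0 and 22.3. Slc44a2 was the most abundant of the list and fell by 0.62 on the log2 scale, and Chka fell by 0.52. Within each sample Ache was 21.1-fold to 32.7-fold above Chat.

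Of 21 acetylcholine receptor genes, 9 were tested, with 6 higher and 3 lower in the placodes, and the median of these 9 was 1.73 on the log2 scale, beside -0.05 for all tested features. Over the 18 receptor genes above 0 in any sample, with no minimum, it was -0.02, beside -0.03 for all such features. All 6 that rose encode subunits of neuronal nicotinic receptors, Chrna3, Chrna4, Chrna5, Chrna7, Chrnb2 and Chrnb4. Chrna5 was at 44.9 and 41.8 in the placode libraries and 1.33 and 0.764 in the SMG libraries (log2 fold change 4.45, standard error 0.14, limma adjusted p = 1.20e-06). Chrna4 was at 34.9 and 35.1 against 2.95 and 2.61, and Chrna3, the main subunit of ganglionic receptors together with Chrnb4, at 20.0 and 20.1 against 1.82 and 1.71. In the placodes these receptor genes, Chrnb4 included at 6.00 and 5.61, were therefore above every gene for making or packing acetylcholine. The muscle receptor genes Chrna1, Chrnd and Chrng were listed at 0 in both placode libraries. In the SMG libraries Chrna1 was at 1.75 and 1.26, Chrnd at 0.795 and 0.873 and Chrng at 2.51 and 1.61. Of the muscarinic receptor genes, Chrm4 was tested and lay lower in the placodes, at 1.34 and 2.19 against 3.54 and 2.50 (adjusted p = 0.0425), a call that 3 of 4 other scalings lost. Chrm4 also lost it without placode sample 1 (adjusted p = 0.257), without SMG sample 1 (0.235) and without SMG sample 2 (0.0538). Chrnb1 lost its call (adjusted p = 0.0149) without placode sample 1 (0.0658), SMG sample 1 (0.0924) or SMG sample 2 (0.0579). Chrm1, Chrm3 and Chrm5 were below 1 in all samples, and Chrm2 was at 0.541 and 0.416 against 1.25 and 1.10.

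**Figure D3:**
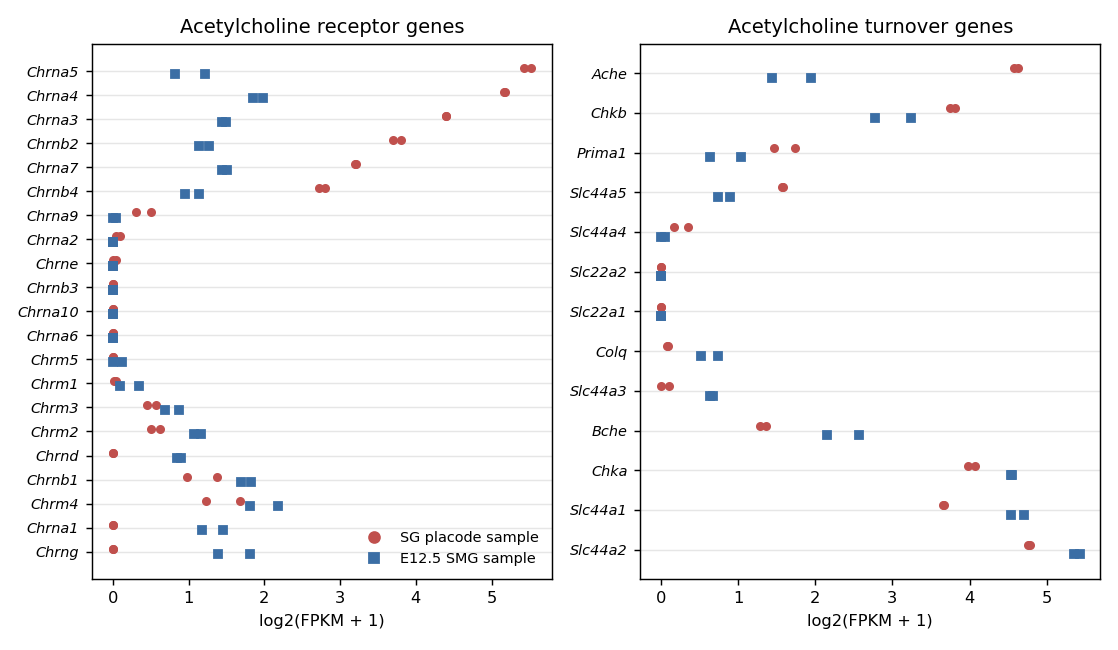
log2(FPKM + 1) of 21 acetylcholine receptor genes (left) and 13 acetylcholine turnover genes (right) in each SG placode sample (red circles) and each E12.5 SMG sample (blue squares), ordered by the difference between the group means. Neuronal nicotinic subunits and Ache are higher in the placodes, and the muscle subunits Chrna1, Chrnd and Chrng are at 0 there.

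Of 26 genes for motor neuron axons, guidance and maturation, 22 were tested, with 13 higher, 5 lower and 4 not past the threshold in the placodes. Their median log2 fold change was 0.73, beside -0.05 for all tested features. Without the minimum the median of the 26 was 0.37, beside -0.03 for all features above 0 in any sample. Many of these genes are shared with other neurons or with other cell types, and which cells expressed them was not tested. The neurofilament gene Nefm, at 199 and 187 against 11.9 and 11.6, and Nefl, at 176 and 167 against 19.1 and 17.1, were among the highest. Prph, which encodes the intermediate filament peripherin of motor, sensory and autonomic neurons, was at 7.14 and 5.43 against 1.46 and 1.02 (log2 fold change 1.70, standard error 0.16, limma adjusted p = 0.000127). The largest rises of the list were in Esrrb, at 20.0 and 19.6 against 0.0630 and 0.0628, and in Esrrg, which marks gamma motor neurons, at 19.5 and 19.1 against 0.295 and 0.266. Ret and Gfra1, receptors for GDNF, rose by 0.76 and 1.37 on the log2 scale, and Cxcr4 by 1.60. Agrn, whose product clusters receptors at the neuromuscular junction, rose by 0.22 (adjusted p = 0.00854, and 0.0611 without placode sample 2). The lowest log2 fold changes were those of the netrin receptor gene Unc5c, -2.70, and of Robo2, -2.13. Calca, the CGRP gene of mature motor and sensory neurons, was at 1.59 and 0.560 in the placode libraries and 0.328 and 0.550 in the SMG libraries, and Nefh at 0.958 and 1.23 against 0.798 and 0.756. Neither had a mean FPKM of 1, and their adjusted p-values without the minimum were 0.201 and 0.134.

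**Figure D4:**
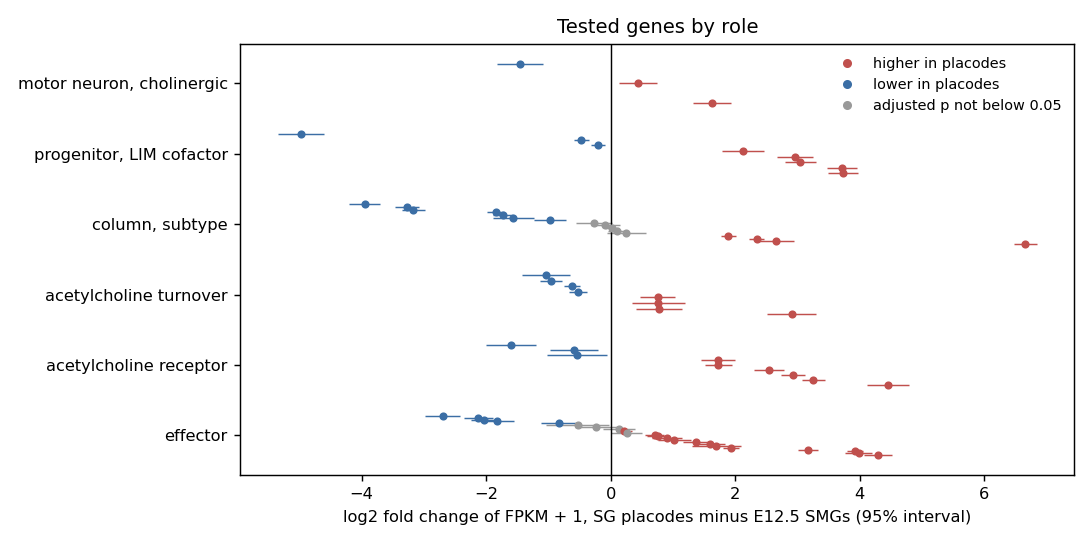
log2 fold change of FPKM + 1 (SG placodes minus E12.5 SMGs) with 95% intervals from limma for the tested genes of each role. Points to the right of 0 are higher in the placodes, gray points had an adjusted p of 0.05 or more, and for genes listed at 0 in a group (Nkx6-1, Chrng) the position depends on the pseudocount.

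The 8 genes are each known from other cell types, whose markers were read in the same samples. Of 12 V2 interneuron genes, 8 were tested, with 4 higher and 3 lower in the placodes, and their summed FPKM was 180 and 179 in the placode libraries and 79.0 and 80.0 in the SMG libraries. Bhlhe22 was at 52.4 and 50.6 in the placode libraries and had a mean of 1.37 ± 0.0973 (SD, n = 2) in the SMGs, and Sox21 at 46.3 and 47.4 against 1.94 and 2.10. Shox2, found in part of the V2a neurons and in mesenchyme, was at 0.562 and 0.817 against 8.72 and 10.1. Tal1, a V2b gene that blood cells also express, was at 0.836 and 0.980 against 2.20 and 2.26, and Lmo4 was the third gene that fell. Foxn4 was at 1.21 and 0.955 in the placode libraries. Sox14 was at 0.147 and 0.221 in the placode libraries and listed at 0 in the SMGs.

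Of 15 sensory neuron genes, 11 were tested, 5 higher and 4 lower, with sums of 138 and 135 in the placode libraries and 100.1 and 104 in the SMG libraries. Neurog1 was at 41.5 and 45.7 in the placode libraries and listed at 0 in both SMG libraries, and Pou4f1, which marks sensory neurons along with Isl1, was at 7.41 and 6.97 against 0.0512 and 0.0230. Trpv1 was listed at 0 in both placode libraries.

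Of 20 genes of autonomic ganglia and Schwann cells, 17 were tested, 5 higher and 7 lower, with sums of 428 and 445 in the placode libraries and 136 and 119 in the SMG libraries. The placode sums came largely from Fabp7, at 343 and 367. Hand2, Sox10, Erbb3, Dbh and Vip were among those lower in the placodes. Hand2, a factor of autonomic neurons and of arch mesenchyme, was at 0.0631 and 0.268 against 19.8 and 18.5, and Vip, a peptide of parasympathetic neurons, was listed at 0 in both placode libraries and at 6.89 and 4.54 in the SMG libraries. In the SMGs, the samples in which Isl2 was higher thus also had the higher values of Hand2 and Vip, and their part in the Isl2 values was not tested.

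Of 12 pituitary genes, where Lhx3, Lhx4 and Isl1 also act, 8 were listed at 0 in all 4 samples, including Hesx1 and Pou1f1, and the sums were 1.02 and 0.772 in the placode libraries and 2.09 and 1.52 in the SMG libraries. Pomc, the gene of this list that was tested, was lower in the placodes (limma adjusted p = 0.00682), a call lost without placode sample 2 (adjusted p = 0.0710), and without SMG sample 1 its mean FPKM fell under the minimum. Of 10 notochord and floor plate genes, 6 were tested, 4 higher and 2 lower, with sums of 98.1 and 99.4 against 28.1 and 26.0. Ntn1, the netrin gene, made up most of the placode sums at 75.4 and 72.3, against 6.27 and 5.53 in the SMGs. Foxa1 was at 1.02 and 1.64 against 6.19 and 6.31 and Chrd at 5.37 and 5.02 against 7.24 and 7.63, the pair that fell. Shh, the signal that induces motor neuron progenitors, was at 2.59 and 2.92 in the placode libraries and 0 and 0.0735 in the SMG libraries, while Noto was listed at 0 in all samples. Of 12 genes of the endocrine pancreas and gut endoderm, where Mnx1 and Isl1 are also expressed, Pdx1, Pax4, Ins1, Ins2 and Gcg were listed at 0 in all samples. The sums of this list were 58.3 and 54.4 against 20.6 and 21.8, of which Sst, also a neuronal peptide, made up 54.9 and 51.1 in the placode libraries. In this list 3 genes were tested, 1 higher and 2 lower in the placodes. Sst was higher (log2 fold change 5.75), and Sox17 (-2.13) and Gata6 (-3.17) were lower.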

How the data were processed

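RNA of 4 samples, grouped by their titles, had been sequenced by the authors as paired-end reads and mapped with HISAT2, and the authors deposited 1 table of FPKM. GEO's processing notes name GRCm38 and also GRCh38. The version of HISAT2, the annotation, the strand setting and the FPKM program are not given in the sources used here. In single-exon genes, FPKM times length recurred at 1 lowest value per sample, but 31.9% to 35.5% of low values lay within 0.05 of its multiples, against 10.0% with no steps, so counts were not recovered, depth is not known exactly, and no detection floor is given. If that value is 1 fragment, Slc18a3 held about 319, 340, 63.2 and 49.6 fragments in placode samples 1 and 2 and SMG samples 1 and 2.

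Coordinates came from GENCODE M21 (GRCm38), in which 22022 of the 22036 listed Ensembl identifiers are present. FPKM was transformed as log2(FPKM + 1), and a mean of 1 or more was required for testing. The test was two-sided, from limma 3.58.1 (R 4.3.3), with lmFit, a trended eBayes, group as the single term and p-values adjusted by the Benjamini-Hochberg method. With 2 samples in each group the smallest p of an exact permutation test is 0.333. Figures were drawn with Python 3.11.15. The members and gene lists were chosen with earlier results of these data known. Genes were named by a fixed rule: the 8 members, any tested gene of the motor neuron and acetylcholine lists with at least the 2 highest, 2 lowest and most abundant, in other lists the 2 highest and 2 lowest by fold change and defining genes at 0, and the 2 genes nearest to each tested member. Other genes with values (among them Calca, Foxn4, Nefh, Olig2, Pou4f1, Sox14 and Vip) were chosen after their values were seen. Some genes of the lists are not reported here. Alternatives changed the pseudocount (0.1, 0.01), the filter (none, 5), the scaling (equal sums, median ratio, quantile, equal sums without mitochondrial genes), the variance prior, the replicate block, the assembled loci and each replicate in turn.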

Additional observations from a re-analysis of the deposited data

How the results depend on the processing

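The filter on low values decided how many of the 8 motor neuron and cholinergic genes could be called. The count was 3 (2 higher and 1 lower in the placodes), 7 with no filter (6 higher), and 0 at a mean FPKM of at least 5, where 0 were higher and 0 lower because no member was left. When 1 replicate was left out, Isl1 lost its call without placode sample 2 and without either SMG sample. Leaving out either SMG sample took away a listed 0 of Lhx3, which lifted its mean FPKM over the minimum. Lhx3 was then called higher, so the called members changed. It passed the minimum through its placode values alone, so this call is no further support. At a detection level of FPKM 1 in both samples 3 members were detected in the placodes and 1 in the SMGs, at 0.1 these were 8 and 4, and at 5 they were 0 and 0. At a mean FPKM of at least 5, fewer genes were tested and the calls fell from 8 to 5 for progenitor and LIM cofactor genes, from 8 to 5 for acetylcholine turnover genes, from 9 to 5 for receptor genes, from 9 to 4 for sensory neuron genes, from 12 to 7 for autonomic and Schwann genes, from 6 to 3 for notochord and floor plate genes and from 1 to 0 for pituitary genes. With no filter, calls were 2 for pituitary genes and 6 against 3 for pancreas and endoderm genes. Pituitary calls ranged from 0 to 1 when 1 replicate was left out. Calls over all features ranged from 7460 to 11894, against 10049.

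Samples with the same replicate number did not deviate together (correlation -0.03 across tested features), so the numbers were not taken as pairs. With the replicate number as a block, 3 members and 10043 features were called. The direction of every tested member held in each alternative run. Isl2 and Slc18a3 kept their call in all 15 alternatives that tested them and Isl1 in 12. With 2 samples a group, leaving out 1 leaves a lone sample that is assumed to vary like the others.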

Other observations

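For each tested motor neuron or cholinergic gene, the nearest other genes were found by Euclidean distance in log2(FPKM + 1) over the 4 samples, which with 2 groups of 2 compares little more than a level and a difference. Closest to Isl1 were Dmd (distance 0.131) and Plcl1 (0.145). Closest to Isl2 were Map3k5 (0.181) and Rbm43 (0.188), both at 0.415 to 0.872 FPKM in the placode samples and 3.10 to 3.24 in the SMG samples. Closest to Slc18a3 were St6gal2 (0.119) and Fam19a2 (0.153).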
